A study of Mus musculus with 18 samples.

Results

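Tumor cells of Saa3 knockout mice (KO_tumor) were compared with tumor cells of mice with intact Saa3 (WT_tumor) in a mouse model of pancreatic ductal cancer. The comparison takes 7 of the 18 libraries of the series, 3 KO_tumor and 4 WT_tumor, which were chosen by their labels and by no measured value. The other 11 libraries hold fibroblasts: 3 of normal pancreas (NPF), 5 of tumors with Saa3 (WT_CAF) and 3 of tumors without it (KO_CAF). WT_tumor and WT_CAF carry Trp53lox/lox, the oncogenic allele K-Ras+/LSLG12Vgeo, the reporter Rosa26+/EYFP and the driver pair Elas-tTA/tetO-Cre, and KO_tumor and KO_CAF carry Saa3-/- in addition. NPF carry K-Ras+/+ with the same reporter and driver pair.

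All 7 tumor cell libraries thus share an activated K-Ras allele, floxed Trp53 and a yellow fluorescent reporter. A Cre recombinase that depends on the elastase promoter, a promoter of acinar cells, acts on these alleles. The labels name no promoter or cell type for the Saa3 deletion. They tell neither the mouse's age nor whether tumor cells and fibroblasts of 1 genotype came from the same animals. WT_tumor 1 and KO_tumor 2 have a 16-base index in their labels and were on lane 7. The other 5 have a 6-base index, WT_tumor 2 and KO_tumor 1 on lane 1, and WT_tumor 3, WT_tumor 4 and KO_tumor 3 on lane 2. Each form of index and each lane therefore holds both genotypes. Replicate numbers follow the order of deposition and pair nothing.

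SAA3 belongs to the serum amyloid A family, small lipid-binding proteins of the acute-phase response. The liver makes the circulating members under the cytokines IL-6 and IL-1, while SAA3 is mainly made outside the liver, by macrophages, adipocytes, fibroblasts and some epithelia. Secreted SAA proteins are known to attract leukocytes and to act on receptors such as TLR2 and TLR4. Pancreatic ductal tumors driven by mutant K-Ras are epithelial, express keratins and often mucins, and can lose these features when they take on mesenchymal traits.

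Saa3 was low in tumor cells even with the gene intact, apart from 1 library. It stood at 4.10, 2.75, 106 and 3.13 FPKM in WT_tumor 1 to 4 and at 0.346, 0 and 0 in KO_tumor 1 to 3 (FPKM, fragments scaled by transcript length and by mapped fragments). The groups did not overlap, and WT_tumor 3 lay far above the other 3 wild-type libraries. On the log2(FPKM + 1) scale used throughout, KO_tumor was lower by a difference of -3.04 ± 1.64 (standard error; limma adjusted p = 1). Without WT_tumor 3 the difference was -1.96. An exact two-sided permutation test over the 7 libraries gave p = 0.057 (0.29 after Benjamini-Hochberg adjustment over 10 genes tested in this way). That is the smallest p this test can give over 35 splits of 3 against 4, because it doubles the one-sided p. WT_tumor 3 also had the highest mean of the 7 for markers of fibroblasts (4.11 on the log2 scale against 1.13 to 2.61), pericytes (1.52 against 0.456 to 1.10) and endothelium (0.967 against 0.268 to 0.409). Fibroblasts of tumors with Saa3 held 892 to 4278 FPKM of Saa3 in 4 WT_CAF libraries and 7.24 in WT_CAF 1, and what fibroblast RNA adds to the 106 FPKM was not tested. Saa1, a circulating member, reached at most 0.341 FPKM in any of the 7. FPKM summed to between 430146 and 562875 per tumor cell library, with 10657 to 11670 genes at 1 FPKM or more. No fragment counts were used, so the depth of each library is unknown.

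The labels call these samples tumor cells and do not say epithelial. By markers, an epithelial identity held in 6 libraries and only in part in WT_tumor 4. Krt8, a keratin of simple epithelia, was high in all 7, at 1217, 1521, 1544 and 1188 FPKM in WT_tumor and 1192, 1987 and 996 in KO_tumor. Epcam, an epithelial adhesion molecule, was at 129, 408, 549 and 2.60 FPKM in WT_tumor and 385, 586 and 482 in KO_tumor. WT_tumor 4 thus kept its keratin but held almost no Epcam. Vim, the mesenchymal filament vimentin, was highest in that library: 627, 773, 180 and 2231 FPKM in WT_tumor against 668, 582 and 293 in KO_tumor. Trp53, the floxed tumor suppressor, lay between 1.38 and 7.11 FPKM in WT_tumor and between 2.22 and 4.38 in KO_tumor. None of the 10 genes of the exact permutation family had an adjusted p below 0.29.

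**Figure D1:**
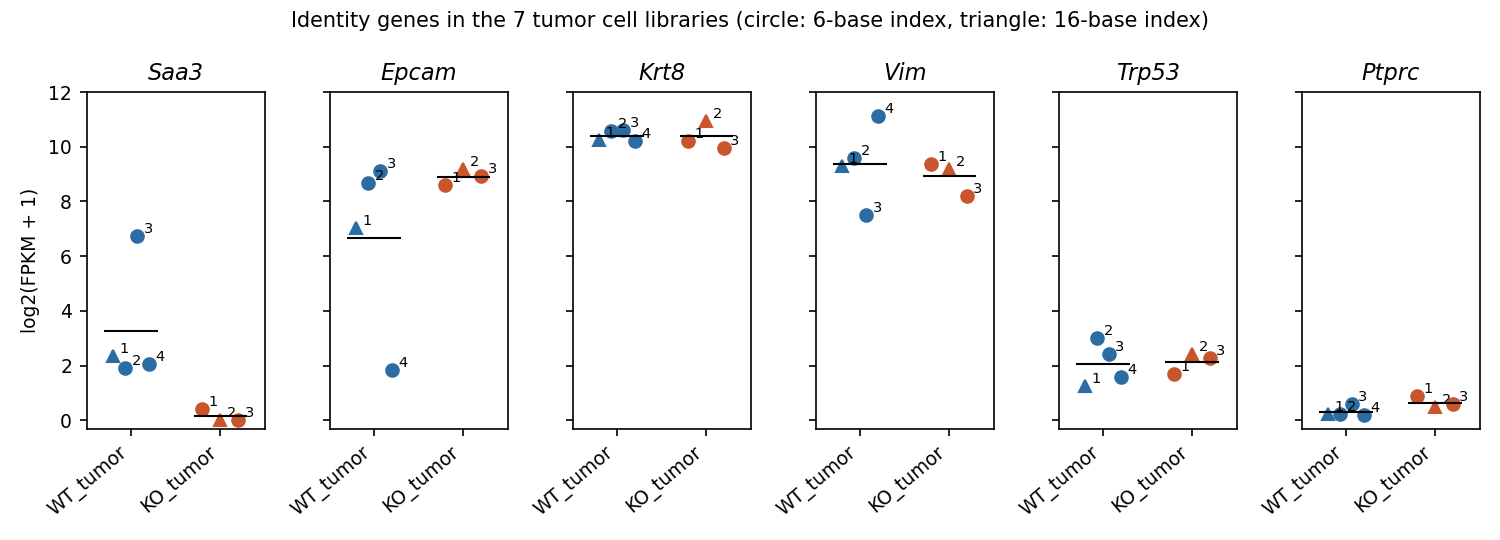
Levels of Saa3, the epithelial genes Epcam and Krt8, the mesenchymal gene Vim, the floxed gene Trp53 and the leukocyte gene Ptprc, as log2(FPKM + 1) on the vertical axis, by group; each point is 1 library, numbered by replicate, circles have a 6-base and triangles a 16-base index, and horizontal lines are group means. WT_tumor 3 stands apart in Saa3 (106 FPKM), and WT_tumor 4 in Epcam (2.60 FPKM) and Vim (2231 FPKM).

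Markers of other pancreatic cell types differed between libraries within each genotype. The mean of 21 acinar genes, digestive enzymes among them, was 9.13, 8.17, 5.82 and 0.799 on the log2 scale in WT_tumor and 0.499, 9.35 and 9.94 in KO_tumor. WT_tumor 4 and KO_tumor 1 thus held little acinar RNA, and the other 5 libraries much. Fibroblast markers averaged 1.69 to 4.11 in WT_tumor, highest in WT_tumor 3, and 1.13 to 2.61 in KO_tumor. Neutrophil markers averaged 0.451 to 2.85 in WT_tumor and 0.697 to 4.24 in KO_tumor, highest in KO_tumor 1, where S100a8, a calprotectin subunit of neutrophils, stood at 299 FPKM against 0.429 to 31.0 in the other 6. Ptprc, the pan-leukocyte antigen CD45, was low everywhere, between 0.155 and 0.867 FPKM. In such sorted bulk samples, fewer cells of a type and less RNA per cell cannot be told apart. What these other cell types contribute to the differences below was not tested, and their marker values are given where they move with a result.

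**Figure D2:**
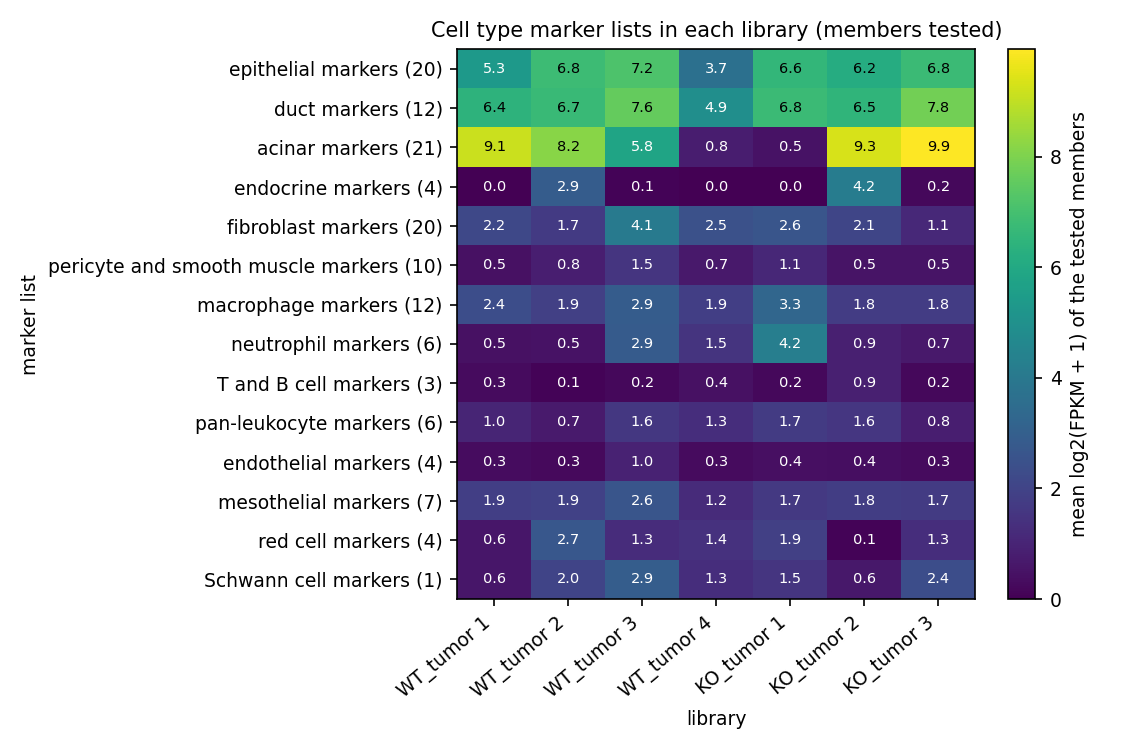
Mean log2(FPKM + 1) over the tested members of each of 14 cell type marker lists (rows, with the number tested) in the 7 tumor cell libraries (columns). Acinar markers are at 0.799 in WT_tumor 4 and 0.499 in KO_tumor 1 against 5.82 to 9.94 in the other 5, and epithelial markers are lowest in WT_tumor 4 (3.68).

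No gene passed the adjusted threshold between KO_tumor and WT_tumor. Of 13369 genes tested, 0 (0%) had a limma adjusted p under 0.05, and the smallest adjusted p was 0.32. At an unadjusted p under 0.05, 287 genes were higher (2.15%) and 241 lower (1.8%) in KO_tumor. All 3 KO_tumor libraries lay above all 4 WT_tumor libraries for 182 genes (1.36%) and below them for 301 (2.25%). These counts were 128 and 169 among genes whose higher group averaged at least 5 FPKM. Saa3 itself, the deleted gene, is among the 301 and did not pass the test. The median difference over all genes tested was -0.02, and 6304 genes (47.2%) were above 0. The names that follow therefore describe leanings, none of which passed the adjusted threshold in this fit, and adjusted p-values below are limma's.

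The genes leaning higher in KO_tumor were led by 3 that were low in all 4 wild-type libraries. Dlk1 encodes a membrane protein related to the Notch ligands and is known from fetal and progenitor cells. It stood at 0.515, 2.66, 0.925 and 3.72 FPKM in WT_tumor and at 18.8, 13.3 and 12.1 in KO_tumor, so that the lowest knockout library was above the highest wild-type library by a wide margin. Its difference was 2.57 ± 0.44 (limma adjusted p = 0.32), with 2.43, 2.12 and 3.24 in lanes 1, 2 and 7. Phyhd1, a dioxygenase related to phytanoyl-CoA hydroxylase, stood at 1.14, 5.02, 7.10 and 3.42 FPKM against 19.3, 15.6 and 21.4 (2.16 ± 0.37; adjusted p = 0.32). Ramp3, an accessory subunit that makes the calcitonin receptor-like receptor respond to adrenomedullin, stood at 1.12, 2.86, 0.876 and 0.944 FPKM against 18.9, 6.24 and 7.42 (2.22 ± 0.41; adjusted p = 0.34). KO_tumor 1 was the highest library for Ramp3 and Dlk1, and all 3 knockout libraries were well above the wild-type range for each of the 3 genes.

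Another 9 genes completed the 12 with the smallest p in this direction, all without overlap between groups. Smoc1, a secreted calcium-binding matrix protein, was at 3.19, 7.33, 3.08 and 4.82 FPKM in WT_tumor and 15.5, 8.98 and 15.2 in KO_tumor (difference 1.40 ± 0.32). Fermt1, the epithelial integrin activator kindlin-1, was at 7.75, 10.8, 15.5 and 9.58 against 16.5, 22.5 and 37.0 FPKM (1.12 ± 0.27). Topbp1, a DNA replication and checkpoint protein, was at 6.12, 7.58, 5.46 and 7.28 against 15.5, 10.8 and 11.7 FPKM (0.85 ± 0.19). These 3 include products that act outside the cell, at its adhesions and on DNA. Fam3c, a secreted interleukin-like protein, differed by 1.04, Pck2, the mitochondrial phosphoenolpyruvate carboxykinase, by 0.94, and Aldh7a1, an aldehyde dehydrogenase of lysine breakdown, by 1.27. Pck2 separated the groups by the least, with 9.14 FPKM in WT_tumor 3 and 9.19 in KO_tumor 2. Exosc5, a subunit of the RNA exosome, differed by 0.74, Ncmap, a protein of noncompact myelin, by 1.23, and Manbal by 1.12.

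Genes leaning lower in KO_tumor had the larger differences. Crisp1, a cysteine-rich secretory protein known from the epididymis, stood at 7.49, 13.7, 31.8 and 38.0 FPKM in WT_tumor and at 0.194, 0.957 and 6.75 in KO_tumor (difference -2.89 ± 0.58, limma adjusted p = 0.43). KO_tumor 3 and WT_tumor 1 nearly met, at 6.75 and 7.49. Ak1, an adenylate kinase that balances adenine nucleotides, stood at 32.2, 16.9, 6.22 and 27.9 FPKM against 1.55, 2.80 and 2.13 (-2.61 ± 0.53, adjusted p = 0.43). Lgals2, a galactose-binding lectin of the gut, stood at 21.7, 185, 26.4 and 142 FPKM against 4.52, 6.32 and 10.2 (-3.04 ± 0.73, adjusted p = 0.66). The wild-type libraries spread over a far wider range than the knockout libraries for Lgals2, and WT_tumor 2 and 4 carried most of it. Ak1 and Lgals2 passed no adjusted threshold. Crisp1 passed it with the lane as a block in place of the index form (-2.60 ± 0.26, limma adjusted p = 0.0057), and its adjusted p lay between 0.082 and 1 under the other settings tried.

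Of the others in this direction, several encode secreted proteins. Cthrc1, a secreted collagen triple helix protein, was at 59.9, 12, 11.6 and 61.1 FPKM in WT_tumor and 6.37, 7.70 and 1.25 in KO_tumor (difference -2.48 ± 0.73). Prl2c2 and Prl2c3, proliferins of the prolactin family, differed by -2.76 and -3.19, with 54.2 and 121 FPKM in WT_tumor 4 and at most 1.72 and 5.55 in KO_tumor. They are close paralogs, so how fragments were divided between them is uncertain. Insl6, a member of the insulin and relaxin family, differed by -1.42. Ostm1, the partner of a lysosomal chloride channel, differed by -0.93. Tspyl1, of the nucleosome assembly family, was the tightest of the 12, at 20.6, 15.2, 17.1 and 15.8 against 9.41, 10.6 and 10.8 FPKM (-0.71 ± 0.16). Lrmp, an endoplasmic reticulum membrane protein known from lymphocytes, differed by -2.64, with 64.3 FPKM in WT_tumor 4, and the predicted gene Gm5549 by -1.44.

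**Figure D3:**
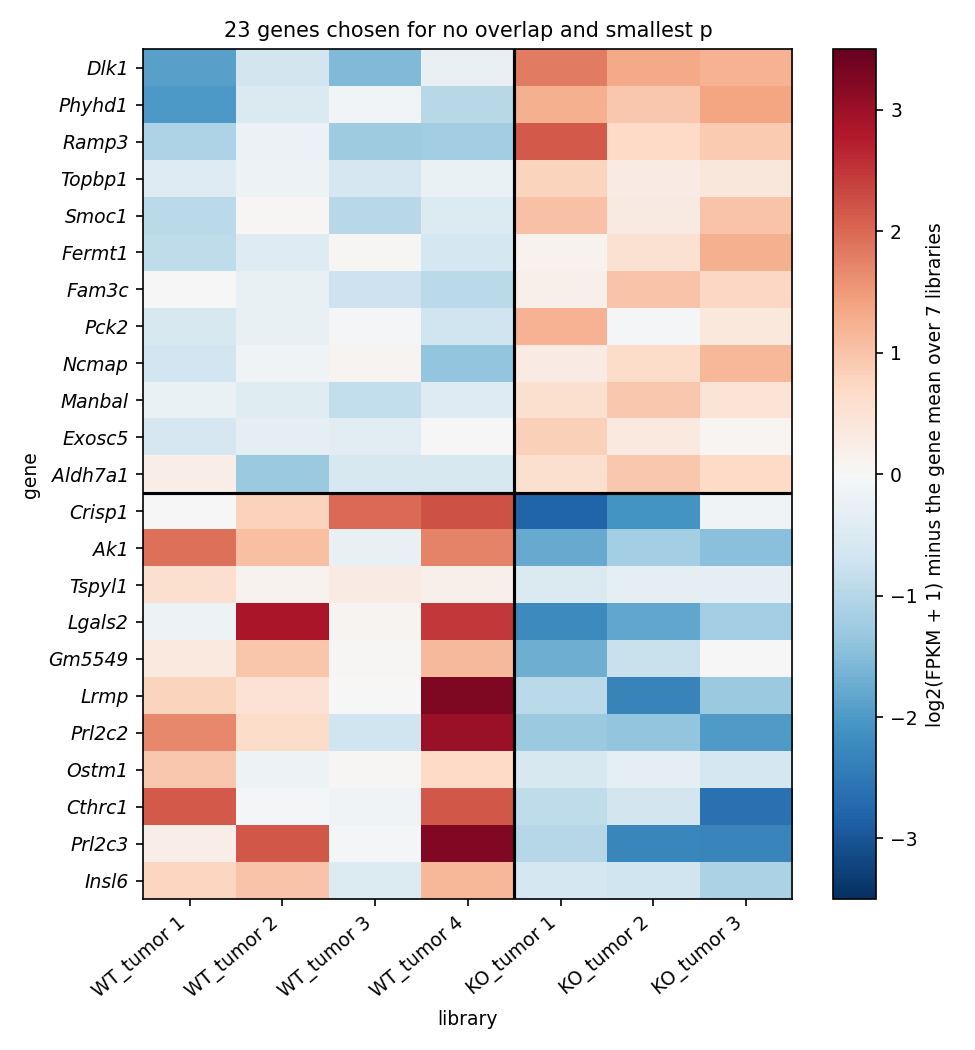
The 23 genes described above (rows) in the 7 tumor cell libraries (columns); color is log2(FPKM + 1) minus the gene's mean over the 7 libraries, red above and blue below. By the way they were chosen, none overlaps between the groups: the first 12 are higher in all 3 KO_tumor libraries and the last 11 lower, and none had an adjusted p under 0.32.

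Interferon response genes leaned lower in KO_tumor. Of 30 tested, 28 lay below 0 and 2 above, against 47.2% above 0 among all genes, and their median difference was -0.36. The 2 with the smallest p were Ddx58, the cytoplasmic RNA sensor RIG-I, and Ifi35, an interferon-induced protein. Ddx58 stood at 2.67, 2.06, 1.70 and 1.35 FPKM in WT_tumor and at 0.60, 0.478 and 1.31 in KO_tumor (-0.73 ± 0.24, limma adjusted p = 1). Ifi35 stood at 14.1, 11.7, 11.9 and 10.2 against 8.30, 6.40 and 5.73 FPKM (-0.75 ± 0.27, adjusted p = 1). Neither gene overlapped between the groups, but KO_tumor 3 came close to WT_tumor 4 for Ddx58. At an unadjusted p under 0.05 these were 2 of 30 genes lower and 0 higher, against 1.8% and 2.15% of all genes.

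The remaining interferon genes were mostly low in tumor cells of either genotype. Irf7, a transcription factor of the response, was at 1.78, 7.03, 9.29 and 1.84 FPKM in WT_tumor and 3.47, 0.454 and 2.15 in KO_tumor, and overlapped between the groups. Isg15, a ubiquitin-like effector, was at 2.88, 1.66, 7.18 and 5.96 against 3.07, 0.245 and 0.806 FPKM (-1.14 ± 0.65). KO_tumor 2 was the lowest library for Irf7 and Isg15. The mean over the 30 genes was 1.73, 1.31, 1.88 and 1.25 in WT_tumor and 1.32, 0.823 and 1.34 in KO_tumor, so the list as a whole overlapped. Its median difference ranged from -0.45 to -0.21 when each library was left out in turn, nearest to 0 without KO_tumor 2. Fibroblast markers leaned lower as well (19 of 20 below 0, median -0.55), and WT_tumor 3, with their highest mean (4.11), also had the highest interferon mean. In the 11 fibroblast libraries the interferon mean was 1.17 to 3.43. Pan-leukocyte markers averaged 0.727 to 1.62 in WT_tumor and 0.838 to 1.71 in KO_tumor and macrophage markers 1.86 to 2.90 and 1.77 to 3.27. The part of these cell types in the interferon lean was not tested.

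Genes of antigen presentation on MHC class I, which display peptides to cytotoxic T cells, leaned the same way. Of 18 tested, 15 lay below 0 and 3 above, against 47.2% above 0 among all genes, with a median of -0.25 that ranged from -0.43 to -0.14 with each library left out in turn. H2-T23, a non-classical class I molecule, stood at 35.4, 43.4, 61.1 and 34.4 FPKM in WT_tumor and 30.4, 15.1 and 19.3 in KO_tumor (-0.99 ± 0.36, limma adjusted p = 1). It was the single member of the 18 that was lower without overlap, against 2.25% of all genes. The classical heavy chain H2-K1 was at 45.8, 146, 124 and 59.7 FPKM against 57.3, 37.7 and 65.9, and H2-D1 at 134, 86.6, 123 and 61.9 against 69.0, 45.6 and 60.7. B2m, the shared light chain, differed by -0.12. Class I heavy chain genes are near-identical to each other, so their shares are uncertain. The mean over the list was highest in WT_tumor 3, at 4.23 against 3.51 to 4.02 in the other 6, and 3.64 to 5.88 in the 11 fibroblast libraries. Fibroblast markers were also highest in WT_tumor 3 (4.11). WT_tumor 2 had the next highest class I mean (4.02) with a fibroblast mean of 1.69. KO_tumor 1 had the next highest fibroblast mean (2.61) with a class I mean of 3.52. The part of fibroblasts was not tested. MHC class II genes, which belong to professional antigen-presenting cells, had a median of 0.29 with 5 of 6 above 0.

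Receptors of SAA proteins leaned slightly higher in KO_tumor, and lists of cytokines and inflammatory genes were split. Among 6 receptor genes tested, 5 lay above 0 with a median of 0.10, which was 0.02 to 0.21 with each library left out in turn, and Tlr2 and Tlr4 were at 0.540 to 1.53 and 1.41 to 7.14 FPKM in WT_tumor against 0.659 to 1.90 and 2.55 to 7.03 in KO_tumor. Acute-phase genes other than the SAA family had 6 of 12 above 0, and 26 chemokine ligands had 13 above 0. Inflammatory targets of NF-kB and IL-1 had 12 of 22 above 0, and none reached an unadjusted p under 0.05. Il1a, the cytokine IL-1 alpha, had the smallest p, at 7.14, 2.71, 83.6 and 2.62 FPKM in WT_tumor and 40.2, 42.9 and 26.5 in KO_tumor (1.90 ± 0.93). WT_tumor 3, the library with the most Saa3, was above all KO_tumor libraries for Il1a. The STAT3 pathway list had 9 of 18 above 0.

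Epithelial genes leaned higher in KO_tumor, and WT_tumor 4 carried most of that lean. Of 20 tested, 17 lay above 0 with a median of 0.78, and without WT_tumor 4 it was 13 with a median of 0.14. Epcam went from 2.16 ± 1.33 to 0.64 without it. Cldn4, a tight junction claudin, stood at 14.4, 133, 536 and 1.66 FPKM in WT_tumor and 193, 100 and 186 in KO_tumor, and Esrp1, an epithelial splicing regulator, at 3.10, 16.5, 23.7 and 0.989 against 18.9, 10.9 and 26.9. WT_tumor 4 was lowest for both and WT_tumor 3 highest or next to highest. The same held for gastric and classical tumor genes (13 of 20 above 0, median 0.23, and 4 of 20, median -0.51, without WT_tumor 4) and for tight junction genes (16 of 22, median 0.36, and 8 of 22, median -0.06). Of the tight junction genes Cldn6, a claudin of embryonic epithelia, was at 14.0, 44.6, 108 and 11.7 FPKM against 141, 350 and 112, without overlap (2.49 ± 1.08, limma adjusted p = 1; 2.08 without WT_tumor 4). WT_tumor 3 at 108 FPKM nearly reached KO_tumor 3 at 112.

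Keratins, adhesion and basement membrane genes gave a few single leanings. Krt17, a keratin of basal and stressed epithelia, was at 1.51, 0.141, 1.57 and 0.0504 FPKM in WT_tumor and 17.1, 1.38 and 2.75 in KO_tumor (1.73 ± 0.53, limma adjusted p = 1). KO_tumor 1 dominated this value, which was 0.84 without it. Lama3, the alpha chain of laminin-332, was at 10.5, 11.6, 35.9 and 0.415 against 24.2, 34.6 and 33.8 FPKM, with a difference of 1.74 that was 0.85 without WT_tumor 4. Cdh6, a cadherin of kidney and fetal epithelia, was at 29.2, 33.2, 11.3 and 54.8 against 4.88, 16 and 14.1 FPKM (-1.37 ± 0.54). Both Lama3 and Cdh6 overlapped in 1 wild-type library, WT_tumor 3. Integrins and laminins as a list had 17 of 21 above 0 with a median of 0.23.

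Mesenchymal and matrix genes leaned lower in KO_tumor, and here WT_tumor 3 and KO_tumor 3 mattered. Fibroblast markers had 19 of 20 tested members below 0 and a median of -0.55, which was 0.07 without WT_tumor 3 and -0.12 without KO_tumor 3. Col1a1, the main fibrillar collagen chain, was at 7.70, 5.83, 208 and 28.1 FPKM in WT_tumor and 56.8, 12.4 and 4.63 in KO_tumor. Thy1, a surface marker of fibroblasts, was at 0.0186, 0.130, 10.2 and 0.875 against 8.61, 0.0242 and 0.453 FPKM. WT_tumor 3 and KO_tumor 1 thus had the most of both. Col6a2, a chain of microfibrillar collagen VI, was at 33.5, 15.9, 20.3 and 18 FPKM against 13.5, 9.50 and 1.98, without overlap (-1.52 ± 0.95). Bicc1, an RNA-binding protein, was at 20.2, 19.8, 20.4 and 11.8 against 3.21, 4.60 and 15.4 (-1.38 ± 0.54), with KO_tumor 3 above WT_tumor 4. Genes of the epithelial to mesenchymal transition had 5 of 20 above 0 and a median of -0.36, which was -0.15 without WT_tumor 4 and 0.01 without KO_tumor 3.

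**Figure D4:**
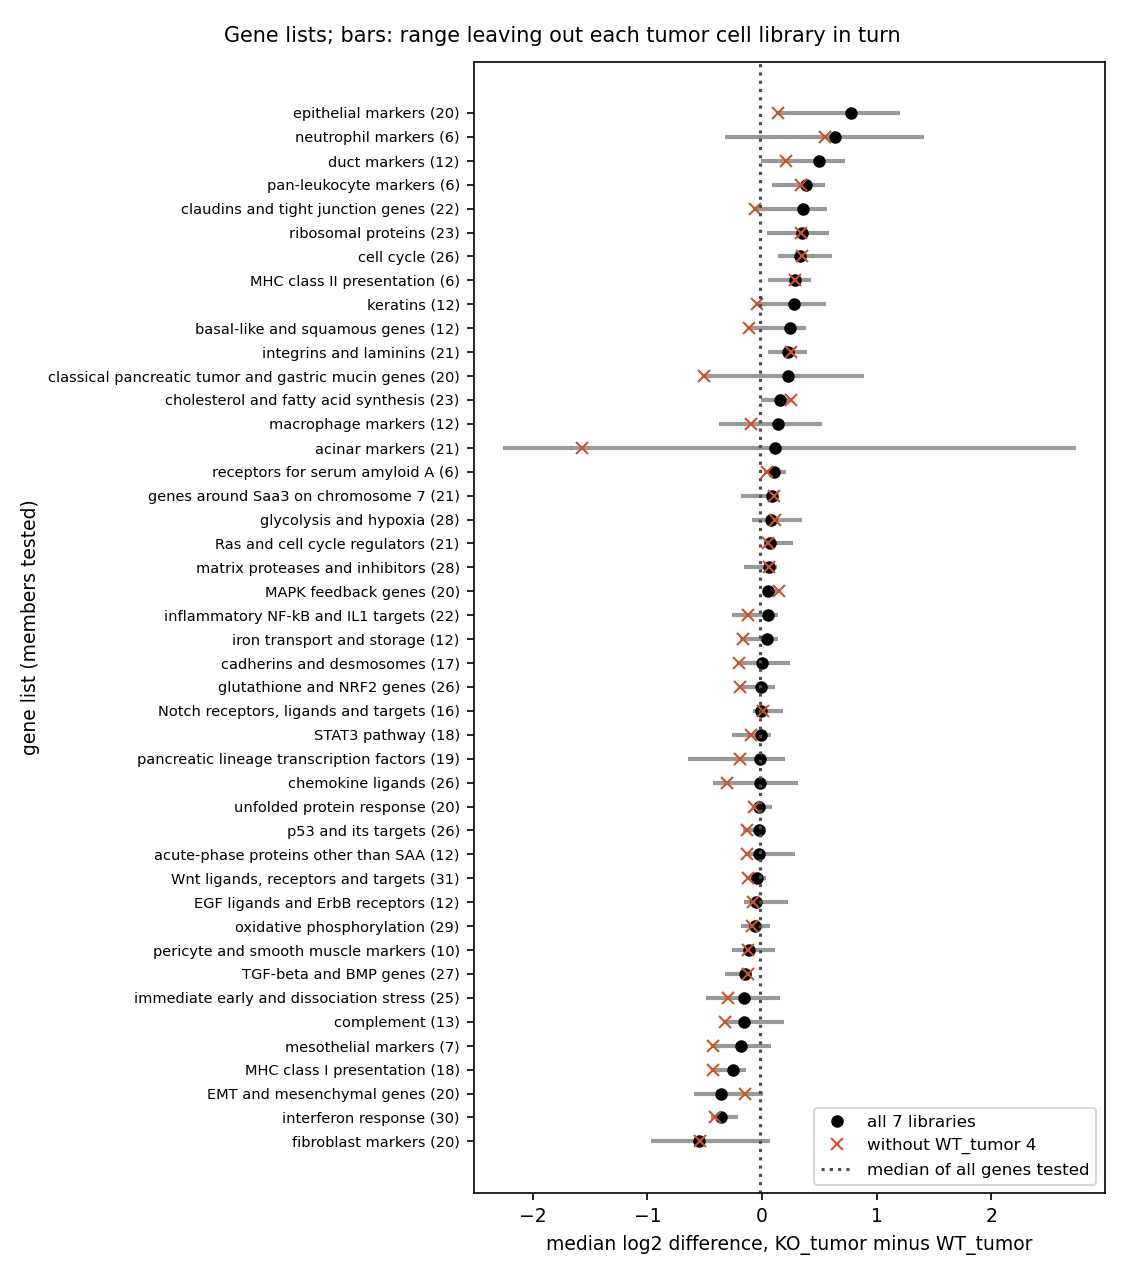
Median log2 difference, KO_tumor minus WT_tumor, of the tested members of each gene list with at least 6 of them (number in parentheses); dots use all 7 libraries, crosses leave out WT_tumor 4, bars span the medians with each tumor cell library left out in turn, and the dotted line is the median of all genes tested. The bars span -0.45 to -0.21 for interferon response, -0.43 to -0.14 for MHC class I, 0.14 to 0.61 for cell cycle and 0.14 to 1.20 for epithelial genes, whose lowest value is the one without WT_tumor 4.

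Cell cycle genes leaned higher in KO_tumor, though every tested member overlapped between the groups. Of 26 tested, 24 lay above 0 with a median of 0.33, and the medians with each library left out ranged from 0.14 to 0.61. The genes of the MCM complex, the helicase that opens replication origins, led the list. Mcm2 stood at 26.6, 4.75, 7.19 and 10.3 FPKM in WT_tumor and 21.8, 25.5 and 19 in KO_tumor (1.02 ± 0.46), and Mcm6 at 37.6, 8.26, 7.82 and 30.9 against 39.9, 36.4 and 30.2 (0.98 ± 0.50). Both overlapped: WT_tumor 1, a library with a 16-base index, was high in both, and WT_tumor 4 was above KO_tumor 3 for Mcm6. Over the list, the 2 libraries with that index averaged 4.32 each, WT_tumor 1 and KO_tumor 2, and with the 6-base index KO_tumor 1 and 3 averaged 3.85 and 3.22 against 2.80, 3.06 and 3.52 in WT_tumor 2 to 4. Mki67, the proliferation antigen, differed by -0.08 and lay on the other side of 0 from most of the list. Ribosomal protein genes had 20 of 23 above 0 with a median of 0.35, which was 0.04 without KO_tumor 1.

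Regulators of growth and identity showed scattered members with larger differences. Ras and cell cycle regulators as a list had 15 of 21 above 0, against 47.2% of all genes. Their median was 0.07, and 0.02 to 0.27 with each library left out in turn. Ccnd2, cyclin D2, was at 26.8, 21.2, 18 and 10.9 FPKM in WT_tumor and 29.5, 24.6 and 56.8 in KO_tumor (0.88 ± 0.35), and the CDK inhibitor Cdkn2c at 4.53, 2.97, 3.34 and 3.6 against 1.33, 2.52 and 1.17 (-0.83 ± 0.33). Cdkn2c did not overlap between the groups, while Ccnd2 did in 1 library of each. Gadd45a, a stress gene under p53, differed by 1.01 ± 0.41, and the p53 list as a whole had a median of -0.03. Among endoderm transcription factors, Foxa3 was at 3.65, 2.96, 3.82 and 1.45 FPKM against 3.90, 9.53 and 5.49 (0.82 ± 0.29). Foxa2 went the other way, at 15.6, 18.5, 17.4 and 18.4 against 4.24, 5.76 and 15.4 (-1.14 ± 0.50). Neither overlapped, though KO_tumor 3 nearly equalled WT_tumor 1 for Foxa2 and KO_tumor 1 nearly equalled WT_tumor 3 for Foxa3.

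Among signaling ligands, Bmp7 was lower in KO_tumor than in 3 of the 4 wild-type libraries. Bmp7, a bone morphogenetic protein, was at 55.9, 42.6, 0.498 and 49.0 FPKM in WT_tumor and 0.949, 0.427 and 1.67 in KO_tumor (-3.45 ± 1.08, limma adjusted p = 1). WT_tumor 3 was as low as the knockout libraries, and without it the difference was -4.67 (adjusted p = 0.074, against 0.84 to 1 with any other single library left out). Id3, a transcriptional target of BMP signals, was at 105, 89.7, 21.3 and 105 FPKM against 49.1, 22.7 and 21.4 (-1.23 ± 0.57). WT_tumor 3 was just below the lowest knockout library for Id3. The TGF-beta and BMP list had 10 of 27 above 0 and a median of -0.15. Wnt7a, a Wnt ligand, was at 16.7, 7.18, 38.3 and 0.862 against 34.1, 32.9 and 44.0 FPKM (1.87 ± 0.69), and was 1.08 without WT_tumor 4. Hey1, a target of Notch receptors, differed by -1.18 ± 0.51 while the Notch-related Dlk1 was higher, and the Notch list had 8 of 16 above 0.

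The genes next to Saa3 on chromosome 7 were read in the order of RefSeq on GRCm38.p6, since the submitters' notes name mm9 and only order was taken. Of the 10 tested neighbours on each side, 12 of 20 lay above 0 with a median of 0.17, against 47.2% above 0 among all genes. An unadjusted limma p under 0.05 was reached by 2 of the 20, Saal1 lower and Tmem143 higher. Among all genes these shares were 1.8% lower and 2.15% higher. Saal1, the next tested gene on one side, was at 0.985, 1.05, 1.38 and 1.39 FPKM in WT_tumor and 0.108, 0.144 and 0.448 in KO_tumor, without overlap (-0.84 ± 0.28, limma adjusted p = 1). In fibroblasts it leaned the same way (-0.87 ± 0.31), although KO_CAF 1 at 2.68 FPKM was within the WT_CAF range of 1.82 to 3.61. Tmem143 differed by 0.55, and Ldha, the lactate dehydrogenase A subunit, by 0.20. Apart from Saal1 and Saa3, both lower, no gene of this stretch was without overlap. Among all genes 2.25% were lower and 1.36% higher in this way. A separate list of genes around Saa3 on chromosome 7, with Saa3 among them, had 12 of 21 tested above 0 and a median of 0.09. In that list 1 member was higher and 1 lower without overlap. Its member with the smallest p was Prmt3, which differed by 0.63.

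A comparison with fibroblasts asked which genotype differences of tumor cells were shared. In KO_CAF against WT_CAF, Saa3 differed by -10.40 ± 1.80 and did not pass the test (limma adjusted p = 0.32). The single gene that passed, 1 of 13369 (0.00748%), was Mpp6, a membrane scaffold of the guanylate kinase family, which was higher in KO_CAF by 4.49 ± 0.38 (limma adjusted p = 0.00016). In tumor cells Mpp6 was already present with Saa3 intact, at 32.0, 24, 32.7 and 17.5 FPKM in WT_tumor and 41.4, 64.9 and 40.3 in KO_tumor. All 3 knockout libraries were above all 4 wild-type libraries (0.82 ± 0.35, limma adjusted p = 1; exact permutation p = 0.057). The tumor cell difference minus the fibroblast difference was -3.66 ± 0.52 (adjusted p = 0.079). Of 13369 genes tested, 3 separated the genotypes without overlap, in the same direction, in both cell types: Saa3, Mpp6 and Rnaset2b. In tumor cells alone, 182 (1.36%) did so higher and 301 (2.25%) lower. How many genes would do so in both cell types by relabelling alone was not tested. Several gene lists lay mostly above 0 in both cell types. Integrins and laminins had 17 of 21 (median 0.23) above 0 in tumor cells and 15 of 21 (0.18) in fibroblasts. Pan-leukocyte markers had 5 of 6 in each. Cell cycle genes had 24 of 26 above 0 with a median of 0.33 in tumor cells. In fibroblasts, where 48.5% of all genes were above 0, cell cycle genes had 26 of 26 with a median of 0.47. Their unadjusted means overlapped in fibroblasts too, at 2.26 to 3.73 in WT_CAF and 2.73 to 3.19 in KO_CAF. Interferon response genes lay above 0 in 2 of 30 in tumor cells and 12 of 30 in fibroblasts (median -0.08), and MHC class I genes in 3 of 18 and 8 of 18 (median -0.02). Differences between lists in the 2 cell types were not tested.

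Rnaset2b and Dynlt1b were low genes with a pattern by genotype across the whole series. Rnaset2b, a ribonuclease, was at 0, 0, 0.856 and 0.575 FPKM in WT_tumor and 2.0, 1.04 and 1.12 in KO_tumor, at 1.86, 1.15 and 1.42 in KO_CAF, and listed at 0 in all 5 WT_CAF and 3 NPF. Dynlt1b, a dynein light chain, was at 0, 0, 0 and 1.28 FPKM in WT_tumor and 3.69, 3.34 and 1.23 in KO_tumor (1.53 ± 0.34), and at 4.15, 1.67 and 3.18 in KO_CAF against 0 in all WT_CAF and NPF. WT_tumor 4 was the single library with Saa3 intact in which Dynlt1b was above 0. Both genes lie on chromosome 17, not on chromosome 7 with Saa3, and both have near-identical copies, so their values are uncertain.

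Most genes that led the tumor cell comparison had the same sign in fibroblasts, none with an unadjusted limma p under 0.05 there. For the 12 leaning higher, the KO_CAF against WT_CAF differences ranged from -0.16 to 0.36, with 8 above 0. For the 12 leaning lower they ranged from -0.82 to 0.31, with 10 below 0. Among all genes, 48.5% were above 0 in fibroblasts. The test of the difference between both knockout effects called no gene (0%, smallest adjusted p 0.079), with 185 genes (1.38%) at an unadjusted p under 0.05. Of the 24, 8 of those leaning higher and 7 of those leaning lower were among the 185. For Dlk1 the effects differed by 2.70 ± 0.66 (limma adjusted p = 1) and for Phyhd1 by 2.25 ± 0.56. These genes were chosen for their tumor cell difference, which enters that test. Rbp4, the plasma retinol carrier, leaned in opposite ways: it was at 86.2, 25.4, 51.3 and 44.7 FPKM in WT_tumor against 16.1, 24.7 and 20.3 in KO_tumor (-1.22 ± 0.45), and differed by 0.93 ± 0.50 in fibroblasts. Gadd45a did the reverse, 1.01 ± 0.41 in tumor cells and -0.99 ± 0.45 in fibroblasts.

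**Figure D5:**
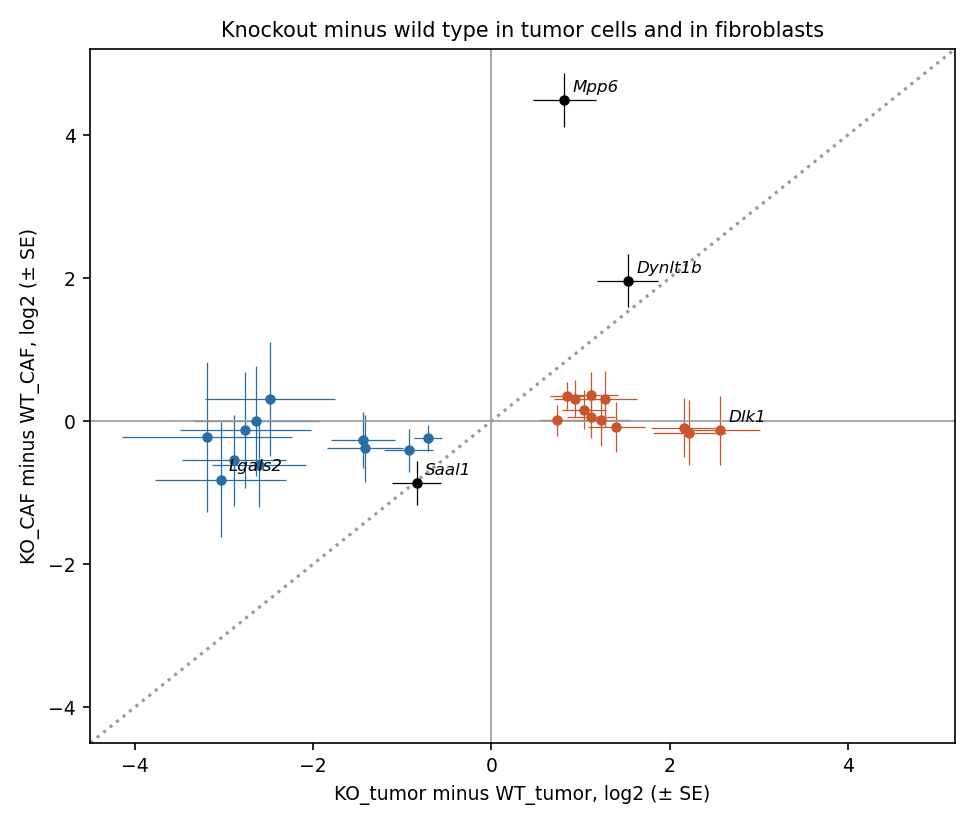
Difference KO_tumor minus WT_tumor (horizontal) against KO_CAF minus WT_CAF (vertical), log2 scale with standard errors; orange points are the 12 genes leaning higher and blue points 11 leaning lower in tumor cells, black points are Mpp6, Dynlt1b and Saal1, and the dotted line marks equal differences. The 23 genes lie between -0.82 and 0.36 on the vertical axis, while Mpp6 is at 4.49.

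Genotype was not the main axis of variation among the 7 libraries. The first principal component of their log2(FPKM + 1) values (37.94% of the variance) set WT_tumor 1 and KO_tumor 2, the libraries with a 16-base index, at 71.85 and 68.89 against -45.65 to 2.995 for the other 5. The second (23.21%) set WT_tumor 4 apart at 76.41. Across genes, Spearman correlations between libraries of opposite genotype with the same index form were 0.855 to 0.941 (7 pairs), and those between libraries of 1 genotype with the same index form 0.846 to 0.909 (4 pairs). The closest pair of all was WT_tumor 1 with KO_tumor 2. Cdkn2a, a tumor suppressor locus, was at 8.86 and 8.55 FPKM in these 2 libraries and at 186 to 924 in the other 5. It followed the index form, not the genotype, and the cause was not tested.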

How the data were processed

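Poly(A) RNA of sorted mouse cells was sequenced on a HiSeq2000 after TruSeq preparation, per the labels' protocols, and the series calls its samples biological replicates. The authors deposited 1 table with FPKM values of 23951 gene symbols in 18 libraries. The submitters' processing notes list TopHat2 2.0.10 with Bowtie 1.0.0 among the tools, Cufflinks 2.2.1 with Cuffnorm, SAMtools 0.1.19 and FastQC, and of the builds they name mm9 is the one of mouse. The tools' settings, the annotation and the sort markers were not found in the labels. Cufflinks can list a gene at exactly 0 where its estimate failed: in 23 cases (21 genes) 1 tumor cell library was at 0 while the others of its group were at 10 FPKM or above, such as Clu in KO_tumor 2.

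Tests used log2(FPKM + 1) and limma 3.58.1 in R 4.3.3 (trended empirical Bayes, two-sided). A single fit took all 18 libraries with 5 groups and the index form (none, 6 or 16 bases), so the spread is shared with the fibroblasts at 11 residual degrees of freedom. To be tested, a gene had to reach 1 FPKM in 3 or more libraries, which 13369 did and 10582 did not. Benjamini-Hochberg adjustment ran over all genes tested, with a threshold of 0.05. This scale understates differences of low genes. Exact tests and list counts were computed in Python 3.11.15. The fit was also run on simulated data with independent noise, where changes were planted only in well-expressed genes of small spread. Those data held no index, lane or library effect, so they do not show how the fit handles such effects.

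Named genes were the 12 in each direction with the smallest p among genes without overlap whose higher group averaged at least 5 FPKM, 2 members of smallest p from each of 50 gene lists, 5 in each direction for the difference between knockout effects, 10 tested by exact permutation, Dynlt1b, and neighbours of Saa3. Of these, 1 of the 12 leaning lower is not reported here. Other list members were named as examples after their values were seen. The groups, members and lists were chosen with earlier results of these data known. Lists are described by counts and medians, with no test. Other settings covered the pseudocount, filter, scaling, index term, lane, quality weights and each library left out.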

Additional observations from a re-analysis of the deposited data

Results flagged for a closer look

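In 10 of 110 values checked, 1 of the 4 WT_tumor libraries stood apart from the other 3 by Dixon's criterion (the gap to the nearest library as a share of the range). Chance gives about 1 in 20 such values, and KO_tumor, with 3 libraries, could not be checked. WT_tumor 3 stood apart in 5: Saa3 was at 6.74 on the log2(FPKM + 1) scale and the serum amyloid A family at a mean of 3.58, both high, endothelial markers were high at 0.967, and Bmp7 at 0.583 and Id3 at 4.48 were low. WT_tumor 4 was low in Bicc1 (3.68) and high in Dynlt1b (1.19). WT_tumor 2 was high in endocrine markers, at a mean of 2.90. WT_tumor 1 was low in MAPK feedback genes (3.93) and in ribosomal protein genes (8.46), and KO_tumor 2, the other library with a 16-base index, had a ribosomal mean of 8.65.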

How the results depend on the processing

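The number of genes called in KO_tumor against WT_tumor stayed at 0 in each direction except as follows. With lane in place of the index form, 1 gene was called lower (Crisp1, -2.60, adjusted p = 0.0057). With no filter on low values, 4 were called higher (Il3, Myo3b, Smarca5-ps and Wfdc8) and 1 lower (Eya1). With array quality weights, whose estimation did not fully converge, 2 were called higher (Dlk1, 2.68, and Phyhd1, 2.12, adjusted p = 0.047 each). Leaving out each library in turn gave 0 to 1 called higher, Camk2b without WT_tumor 2 (2.26, adjusted p = 0.039). The difference between knockout effects called 1 gene lower, Mpp6, without the index term (-3.46, adjusted p = 0.045), with array quality weights (-3.46, 0.015) and without WT_CAF 1, a library with few fibroblast markers that was doubted after seeing the data (-3.66, 0.023), a range of 0 to 1 over libraries left out. The cause was not tested. At an unadjusted p under 0.05 the 287 genes higher became 454 with no filter, 141 with libraries rescaled to the same sum, and 153 within the 6-base index, and the 241 lower became 424 with quality weights and 122 without KO_tumor 1. Small differences changed sign: Trp53 to -0.36 within the 6-base index and -0.08 without WT_tumor 3 and 4 (chosen after seeing the data), where Saa1 was 0.03 and Krt8 0.04. With 1 library left out, the fitted differences ranged from -0.24 to 0.39 for Trp53, -0.29 to 0.09 for Krt8, -1.08 to 0.14 for Vim, -0.22 to 0.06 for Mki67 and -0.19 to 1.10 for Cdkn2a, and the group mean differences of the exact permutation tests from -0.21 to 0.38, -0.32 to 0.18, -1.08 to 0.13, -0.53 to 0.09 and -1.22 to 2.08 in the same order. Among the other single genes followed through these settings, none changed sign. Some genes named as examples, such as Ldha and Il1a, were not followed, and some list medians crossed 0 with 1 library left out. No paired analysis was possible because the replicate numbers follow deposition order and the labels name no shared animals. Lane, which the labels give and which holds both genotypes each time, was fitted as a block instead, as above. With unknown depth, values under about 1 FPKM cannot be given a counting error.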

Other observations

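Of the metabolic and stress programs not described so far, 4 had medians between -0.06 and 0.08 in KO_tumor against WT_tumor, where that of all genes was -0.02. Glycolysis and hypoxia genes had 16 of 28 tested members above 0 (median 0.08), oxidative phosphorylation genes 10 of 29 (-0.06), genes of the unfolded protein response 9 of 20 (-0.03) and glutathione and NRF2 genes 13 of 26 (-0.01). None of these 4 lists had a member with an unadjusted limma p under 0.05. Cholesterol and fatty acid synthesis genes leaned higher, with 17 of 23 above 0 and a median of 0.16 that was -0.01 to 0.25 with each library left out in turn. Immediate early genes, which dissociation of tissue is known to induce, leaned lower, with 4 of 25 above 0 against 47.2% of all genes, and a median of -0.16 that was -0.49 to 0.16 with each library left out.

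Endocrine genes appeared in 1 library of each genotype. Ins2, an insulin gene, was at 33.7 FPKM in WT_tumor 2 and 132 in KO_tumor 2, at 0.236 in KO_tumor 3, and listed at 0 in the other 4. Of the acinar enzymes, Cpa1 was at 871, 497, 90.8 and 0.512 FPKM in WT_tumor and 0.0770, 735 and 1875 in KO_tumor, and Cdx2, an intestinal transcription factor, was at 0, 13.0, 1.30 and 4.46 against 0.111, 0.0324 and 0.0593.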
